A study of Homo sapiens with 9 samples.

Results

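The genes described here are those of the semaphorin, plexin, neuropilin, Eph receptor, ephrin, ROBO, SLIT, netrin and UNC5 families, which encode ligands and receptors that steer growing axons and migrating cells. They were picked by symbol alone, with 1 pattern per family, and 65 of the 32378 genes in the deposited table matched. RNA was sequenced from SKOV3, an established human ovarian cancer line, in 3 libraries each of cells labelled Carbo+COM33, cells labelled Carbo and cells labelled control. By the series' title Carbo stands for carboplatin, a DNA-crosslinking platinum drug used against ovarian cancer, and COM33 is known only by its code name. All 3 groups were grown in the same medium with fetal bovine serum and antibiotics. The labels give neither doses nor times, no group received COM33 alone, and a single line was used.

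Semaphorins are secreted or membrane-bound ligands. Those of class 3 are secreted and bind neuropilins, which pass the signal on to class A plexins, while most membrane-bound semaphorins bind plexins directly. Ephrins are held on the cell surface and signal in both directions on contact with Eph receptors. SLIT proteins repel cells through ROBO receptors, and netrins act through DCC and the UNC5 receptors. Outside the nervous system the same proteins act on vessels and epithelia, where they change adhesion and the actin cytoskeleton, and several are studied in ovarian and other carcinomas.

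Each library held 13851760 to 15533668 counts, and 16450 genes passed the low-count filter. Of the 65 guidance genes 51 passed and the other 14 had 1 to 81 counts over all 9 libraries. The labels do not say whether the 3 replicates of a group are separate cultures, so p-values measure only the spread between these libraries, which may be technical. Every adjusted p comes from the quasi-likelihood test of edgeR, with the adjustment of Benjamini and Hochberg over all 16450 genes, and a gene is called when its adjusted p lies under 0.05. The epithelial markers KRT7, KRT8, KRT18, KRT19, PAX8 and ERBB2 were abundant, CDH1 stood at or near 0, and the markers of blood, endothelium and fibroblasts each summed to at most 1.64 CPM in any library, where CPM is the count relative to the TMM-scaled library size.

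The guidance genes differed widely in level, which is given here as deposited FPKM, the count divided by gene length and library total, a scale that allows genes of different length to be compared. Over the 9 libraries 32 of the 65 averaged more than 1 FPKM and 13 averaged more than 10 FPKM. NTN4, a netrin of basement membranes, was the most abundant at 178 ± 3.47 FPKM in Carbo+COM33, 218 ± 13.1 FPKM in Carbo and 227 ± 7.67 FPKM in control cells (SD, n = 3 each). It made up 30.4% of the summed FPKM of all 65 genes and 98.5% of that of the netrins, and it ranked 80 among the 16450 tested genes. EPHA2, a receptor for ephrin-A ligands that is often high in carcinomas, followed with 87.2 ± 6.43, 94.1 ± 13.7 and 93.2 ± 7.24 FPKM in Carbo+COM33, Carbo and control cells, and its groups overlapped.

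**Figure D1:**
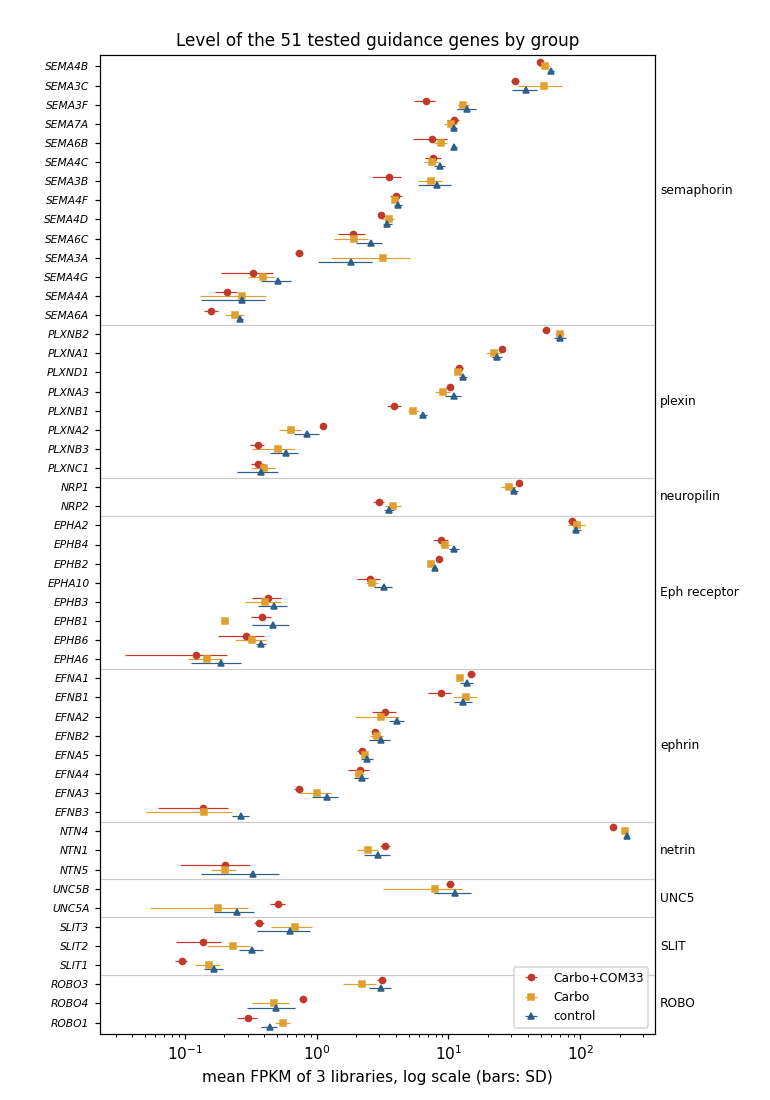
Mean FPKM (log axis) of the 51 tested guidance genes in Carbo+COM33 (circles), Carbo (squares) and control cells (triangles), with bars for the SD of 3 libraries. Genes are grouped by family and ordered by level, and NTN4, EPHA2, PLXNB2 and SEMA4B are the 4 most abundant.

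Among the ligands, the membrane-bound SEMA4B led the semaphorins with a mean of 54.6 FPKM over the 9 libraries and a range of 48.3 to 62.2 FPKM. The secreted SEMA3C came next at 32.0 ± 2.12 FPKM in Carbo+COM33, 53.2 ± 19.5 FPKM in Carbo and 38.6 ± 8.33 FPKM in control cells. Of the 18 semaphorins 14 were tested, and SEMA3D, SEMA3E, SEMA3G and SEMA5A fell short of the filter. EFNA1, a ligand of EPHA2, was the most abundant of the 8 ephrins, all of which were tested, at 14.9 ± 1.08, 12.1 ± 0.277 and 13.9 ± 1.55 FPKM. The SLIT genes were low, and SLIT3, the highest of the 3, averaged 0.369 ± 0.0304, 0.686 ± 0.234 and 0.626 ± 0.272 FPKM.

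On the receptor side PLXNB2, which binds SEMA4C among other class 4 semaphorins, led the plexins at 54.9 ± 3.32 FPKM in Carbo+COM33, 69.7 ± 5.03 FPKM in Carbo and 70.5 ± 7.32 FPKM in control cells. NRP1, a coreceptor of SEMA3A and of vascular endothelial growth factor, held 34.0 ± 0.212, 28.9 ± 3.85 and 31.6 ± 2.2 FPKM, about an order of magnitude above NRP2, the coreceptor of SEMA3F, at 2.97 ± 0.293, 3.81 ± 0.539 and 3.55 ± 0.322 FPKM. UNC5B, a netrin receptor, averaged 10.2 ± 0.721, 7.94 ± 4.74 and 11.2 ± 3.5 FPKM, and ROBO3 led the ROBO family at 3.12 ± 0.241, 2.22 ± 0.619 and 3.07 ± 0.589 FPKM. The 6 Eph receptors that fell short of the filter were EPHA1, EPHA3, EPHA4, EPHA5, EPHA7 and EPHA8, along with PLXNA4, NTN3, UNC5C and UNC5D from other families. The overlapping genes ZYX and CEP83 held more counts than EPHA1 and PLXNC1 in the same stretch of genome, as MRPL43 did than SEMA4G, and whether the counting used strand is not given in the sources used here, so the levels of those 3 guidance genes are uncertain.

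The first comparison asks what the addition of COM33 to carboplatin went with. Of the 51 guidance genes tested, 6 (11.8%) were called in Carbo+COM33 against Carbo, where 4.96% of all tested genes were called. SEMA3A, SEMA3B, SEMA3F, PLXNB1 and ROBO1 fell, against 2.53% of all genes called lower, and PLXNA2 rose, against 2.43% called higher. The median log2 fold change was -0.08 over the 51 genes and -0.01 over all genes tested. In bulk RNA, fewer cells with a transcript and less transcript per cell cannot be told apart.

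The secreted class 3 semaphorins held 3 of the 6 calls. SEMA3F and SEMA3B bind neuropilins, are studied as tumour suppressors that are lost in lung cancer, and lie near each other on the short arm of chromosome 3. SEMA3F had 28.3, 30.7 and 39.6 CPM in the 3 Carbo+COM33 libraries, against 60.4, 68.8 and 58.0 CPM in Carbo cells. Every Carbo+COM33 library lay below every Carbo library, with no overlap. The log2 fold change was -0.93 ± 0.14 (SE, adjusted p = 0.00450), and SEMA3F was the single guidance gene of the 6 whose call held with any 1 of the 9 libraries left out, with adjusted p at most 0.0401.

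SEMA3B had 16.8, 18.7 and 26.2 CPM in Carbo+COM33 cells, against 32.7, 49.7 and 45.3 CPM in Carbo cells. The groups did not overlap, and Carbo 1 was the lowest of the Carbo libraries. SEMA3B fell by 1.05 ± 0.22 on the log2 scale (SE, adjusted p = 0.0179). The call was lost without Carbo+COM33 1 (adjusted p = 0.0937), Carbo+COM33 2 (0.0848), Carbo 2 (0.106) or Carbo 3 (0.0637).

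SEMA3A, the founding member of the class and a ligand of NRP1 with class A plexins, had 6.48, 7.33 and 7.13 CPM in Carbo+COM33 cells, against 11, 31.9 and 46.3 CPM in Carbo cells. The Carbo+COM33 libraries lay close together, while the Carbo libraries were spread widely and Carbo 1 lay nearest to the Carbo+COM33 libraries. The log2 fold change was -2.09 ± 0.43 (SE, adjusted p = 0.0175), the largest fall among the 51 genes. Its call was lost without Carbo+COM33 1, 2 or 3 (adjusted p = 0.0852, 0.0711 and 0.0660), Carbo 2 (0.0820) or Carbo 3 (0.0696).

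SEMA3C, also secreted, had 199, 219 and 193 CPM in Carbo+COM33 cells and 199, 358 and 440 CPM in Carbo cells. Carbo 1 lay within the range of the Carbo+COM33 libraries, and the log2 fold change of -0.71 ± 0.23 (SE) had an adjusted p of 0.0897. The other 10 tested semaphorins, of classes 4, 6 and 7, were not called, with log2 fold changes between -0.57 for SEMA6A and 0.09 for SEMA7A. Over the 18 semaphorins the summed FPKM was 129 ± 8.08 in Carbo+COM33, 168 ± 15.9 in Carbo and 164 ± 11.8 in control cells (SD, n = 3 each).

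**Figure D2:**
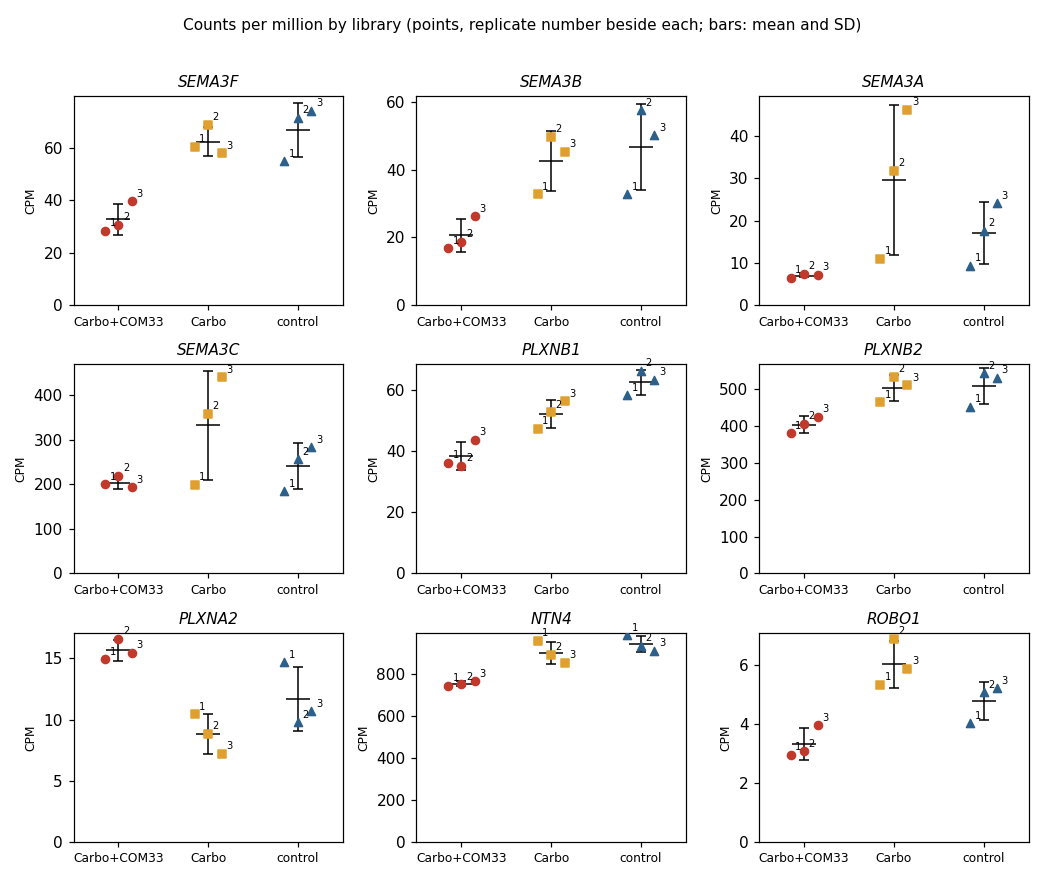
CPM per library of 9 guidance genes in Carbo+COM33, Carbo and control cells, with the replicate number beside each point and bars for the mean and SD of 3 libraries; each vertical axis starts at 0. SEMA3F, SEMA3B, SEMA3A, PLXNB1, PLXNB2, NTN4 and ROBO1 show the Carbo+COM33 libraries below all others. In SEMA3A and SEMA3C the libraries numbered 1 of Carbo and control lie lowest in their groups.

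The plexins held calls in both directions. PLXNB1, the receptor of SEMA4D and a partner of MET and ERBB2 at the cell surface, had 36.2, 35.1 and 43.7 CPM in Carbo+COM33 cells, against 47.3, 52.7 and 56.3 CPM in Carbo cells. The groups did not overlap, and the log2 fold change was -0.44 ± 0.11 (SE, adjusted p = 0.0345). The call was lost without Carbo+COM33 1 (adjusted p = 0.138), Carbo+COM33 2 (0.140), Carbo 2 (0.147), Carbo 3 (0.131), control 2 (0.0566) or control 3 (0.0535). Its ligand SEMA4D had 45.9, 45.2 and 41.4 CPM in Carbo+COM33 cells and 51.1, 53.5 and 43.9 CPM in Carbo cells, and was not called (log2 fold change -0.17, adjusted p = 0.361).

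PLXNA2, a receptor for class 3 semaphorins together with neuropilins and for SEMA6A on its own, was the called gene that rose. It had 14.9, 16.6 and 15.4 CPM in Carbo+COM33 cells, against 10.4, 8.85 and 7.18 CPM in Carbo cells. All 3 Carbo+COM33 libraries lay above all 3 Carbo libraries, with a log2 fold change of 0.83 ± 0.18 (SE, adjusted p = 0.0194). The call was lost without Carbo+COM33 1, 2 or 3 (adjusted p = 0.0634, 0.0819 and 0.0523), Carbo 2 (0.0965) or Carbo 3 (0.0793). PLXNB2 had 380, 407 and 425 CPM in Carbo+COM33 cells and 465, 534 and 511 CPM in Carbo cells, which did not overlap, and missed the threshold (log2 fold change -0.32 ± 0.09, SE, adjusted p = 0.0649). The 2 neuropilins, with which class 3 semaphorins signal, were not called: NRP1 had a log2 fold change of 0.26 (adjusted p = 0.129) and NRP2 a value of -0.33 (adjusted p = 0.121).

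The 300 bases around the RefSeq start sites of called genes are shown for SEMA3F, SEMA3B, PLXNB1 and ROBO1, which fell, and PLXNA2, which rose, in this comparison. SEMA3A is not shown. Where a gene has several RefSeq starts, the one nearest to its start in GENCODE was taken. Each runs 5′ to 3′ on the gene's own strand, from 250 bases before the start to 50 after it. Capitals mark matches on either strand to GGGCGG, the core of the GC box that SP1 binds, to CAGGTG, an E-box bound by SNAI and ZEB factors, and to CCGGAAG, a site of ETS factors. The sequences are from RefSeq on GRCh38.p14.
SEMA3F, chr3:50154808-50155107, plus strand: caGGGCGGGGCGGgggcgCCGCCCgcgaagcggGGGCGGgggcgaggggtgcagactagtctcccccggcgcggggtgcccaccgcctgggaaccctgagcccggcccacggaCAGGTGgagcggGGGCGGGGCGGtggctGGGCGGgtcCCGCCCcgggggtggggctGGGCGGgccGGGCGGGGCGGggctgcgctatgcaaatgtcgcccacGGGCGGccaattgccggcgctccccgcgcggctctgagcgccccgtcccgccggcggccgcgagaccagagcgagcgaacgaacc
SEMA3B, chr3:50267402-50267701, plus strand: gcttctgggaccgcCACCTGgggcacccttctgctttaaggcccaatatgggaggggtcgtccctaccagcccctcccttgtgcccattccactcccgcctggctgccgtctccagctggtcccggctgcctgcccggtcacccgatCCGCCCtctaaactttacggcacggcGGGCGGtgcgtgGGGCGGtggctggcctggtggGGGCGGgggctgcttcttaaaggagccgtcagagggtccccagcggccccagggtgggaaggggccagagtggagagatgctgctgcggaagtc
PLXNB1, chr3:48430037-48430336, minus strand: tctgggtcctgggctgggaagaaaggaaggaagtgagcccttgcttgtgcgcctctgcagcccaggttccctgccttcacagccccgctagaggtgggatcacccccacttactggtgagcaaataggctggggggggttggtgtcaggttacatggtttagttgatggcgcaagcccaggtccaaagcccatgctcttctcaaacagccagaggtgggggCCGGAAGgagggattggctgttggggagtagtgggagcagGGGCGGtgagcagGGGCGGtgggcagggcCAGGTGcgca
ROBO1, chr3:79767949-79768248, minus strand: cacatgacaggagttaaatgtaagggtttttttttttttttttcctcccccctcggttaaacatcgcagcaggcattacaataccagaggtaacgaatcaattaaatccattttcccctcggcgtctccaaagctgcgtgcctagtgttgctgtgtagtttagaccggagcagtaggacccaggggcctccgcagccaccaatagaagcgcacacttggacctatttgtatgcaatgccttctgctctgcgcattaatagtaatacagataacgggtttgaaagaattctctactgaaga
PLXNA2, chr1:208244335-208244634, minus strand: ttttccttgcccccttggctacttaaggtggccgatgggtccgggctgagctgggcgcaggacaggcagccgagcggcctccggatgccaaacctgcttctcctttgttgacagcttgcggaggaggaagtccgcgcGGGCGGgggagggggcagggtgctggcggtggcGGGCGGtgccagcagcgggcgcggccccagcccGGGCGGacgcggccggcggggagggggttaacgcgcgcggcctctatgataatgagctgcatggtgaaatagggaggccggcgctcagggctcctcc

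With overlapping copies counted separately, the GC box letters occurred 12 times in the SEMA3F window, 4 times in that of SEMA3B, 3 times in that of PLXNA2, 2 times in that of PLXNB1 and 0 times in that of ROBO1. Some copy was present in 45.0% of the 35116 RefSeq promoter windows of the same length. CAGGTG occurred once each in the printed windows of SEMA3F, SEMA3B and PLXNB1 and in neither of the others, against 20.6% of all windows, and CCGGAAG once in that of PLXNB1, against 10.3%. These counts depend on the start chosen. The 2 other windows of SEMA3F held 0 and 2 GC boxes and the 4 other windows of SEMA3B held 0 to 4, none of them with CAGGTG. The other window of PLXNB1 held 5 GC boxes and no E-box, and 79.7% of its bases were G or C, against 62.3% in the printed one. The other window of ROBO1 held 1 E-box of these letters. NTN4 and PLXNB2, called lower against control, had no CAGGTG in any of their windows. The only window of PLXNB2 belongs to a RefSeq start 5958 bases from its start in GENCODE, inside the gene. TGANTCA, the AP-1 site, held by 7.71% of all windows, and TATAAA, held by 11.5%, were found in no window of these 7 genes. The printed SEMA3F window had a GC content of 81.3% and that of ROBO1 45.3%, against a median of 58.7% over all windows. A match of letters is a description and not a site of binding.

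ROBO1, a receptor of SLIT proteins, was low in these cells and fell further, with 2.95, 3.07 and 3.95 CPM in Carbo+COM33 cells, against 5.31, 6.87 and 5.86 CPM in Carbo cells. The groups did not overlap, and the log2 fold change was -0.85 ± 0.20 (SE, adjusted p = 0.0285). Its call was lost without Carbo+COM33 1 (adjusted p = 0.119), Carbo+COM33 2 (0.112), Carbo 2 (0.152) or Carbo 3 (0.0784). The 3 SLIT ligands were not called, with log2 fold changes of -0.87 for SLIT3 (adjusted p = 0.130), -0.73 for SLIT2 (0.242) and -0.65 for SLIT1 (0.244). ROBO4, known from endothelium, had 6.04, 5.31 and 5.54 CPM in Carbo+COM33 cells and 4.37, 3.25 and 2.30 CPM in Carbo cells, with a log2 fold change of 0.76 and an adjusted p of 0.140.

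No netrin, UNC5, Eph receptor or ephrin gene was called in Carbo+COM33 against Carbo. NTN4 had 744, 751 and 766 CPM in Carbo+COM33 cells and 958, 893 and 855 CPM in Carbo cells, without overlap, at a log2 fold change of -0.26 ± 0.08 (SE, adjusted p = 0.0690). UNC5A, a netrin receptor linked to apoptosis, had 2.28, 2.51 and 1.94 CPM in Carbo+COM33 cells and 1.35, 0.700 and 0.279 CPM in Carbo cells. Its groups did not overlap either, and the log2 fold change of 1.52 ± 0.42 (SE) had an adjusted p of 0.0588. EFNB1, a transmembrane ligand of EphB receptors, had 24.5, 27.8 and 35.5 CPM in Carbo+COM33 cells and 34.6, 52.5 and 47.8 CPM in Carbo cells, which overlapped through Carbo+COM33 3 and Carbo 1 (log2 fold change -0.62, adjusted p = 0.0576). EPHB1, one of its receptors, had 2.21, 2.79 and 3.12 CPM in Carbo+COM33 cells and 1.35, 1.46 and 1.39 CPM in Carbo cells, with a log2 fold change of 0.95 ± 0.29 (SE, adjusted p = 0.0765).

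**Figure D3:**
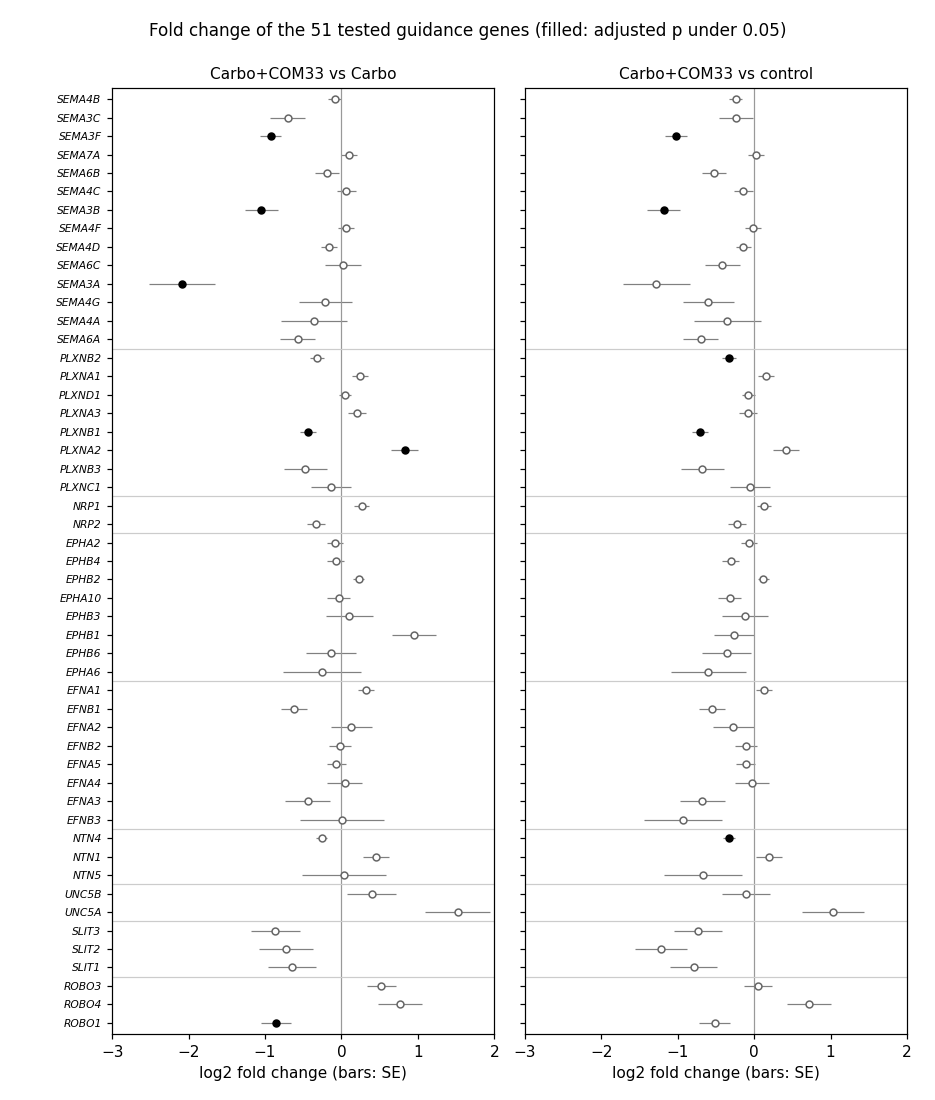
Log2 fold changes with SE bars of the 51 tested guidance genes in Carbo+COM33 against Carbo (left) and Carbo+COM33 against control (right), by family; filled points have an adjusted p under 0.05. On the left 5 genes are called lower and PLXNA2 higher, and on the right 5 genes are called, all lower.

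The number of guidance genes called depended on single libraries. Without Carbo 1 the count was 18 of 51, 8 higher and 10 lower, when 16.5% of all genes were called. Without Carbo+COM33 1, Carbo+COM33 2, Carbo 2 or Carbo 3 it was 1 in each case, SEMA3F, when 1.42%, 1.45%, 0.729% and 1.59% of all genes were called. Without control 1 it was 10, when 6.38% of all genes were called. The pair of Carbo 1 and Carbo 3 was the most distant within any group, with a median absolute log2 difference of 0.185 over the 6607 genes with a mean log2 CPM over 5, against 0.0724 for Carbo+COM33 1 and 2, the closest pair.

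The second comparison sets Carbo+COM33 against control cells, which share the Carbo+COM33 libraries with the first, so the results of both are given side by side and not as support for each other. Here 5 of 51 guidance genes (9.80%) were called, where 6.29% of all genes were called. All 5 fell, against 3.09% of all genes called lower. SEMA3F, SEMA3B and PLXNB1 were called in both comparisons, and NTN4 and PLXNB2 in this one. The median log2 fold change was -0.27 over the 51 genes and -0.01 over all genes, and 41 of the 51 (80.4%) were negative, against 51.9% of all genes. A further fit carried the replicate number, which did not pair these libraries, and removed each library's trend on GC content and length. In it the median over the 51 genes was -0.15 and 32 were negative.

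SEMA3F, at 28.3, 30.7 and 39.6 CPM in Carbo+COM33 cells, had 54.9, 71.5 and 74.2 CPM in control cells, and its log2 fold change was -1.03 ± 0.14 (SE, adjusted p = 0.00282). SEMA3B, at 16.8, 18.7 and 26.2 CPM in Carbo+COM33 cells, had 32.7, 57.5 and 50.2 CPM in control cells, with a log2 fold change of -1.18 ± 0.22 (SE, adjusted p = 0.0114). PLXNB1, at 36.2, 35.1 and 43.7 CPM in Carbo+COM33 cells, had 58.2, 66.3 and 63.3 CPM in control cells, with a log2 fold change of -0.71 ± 0.11 (SE, adjusted p = 0.00374). In all 3 genes every Carbo+COM33 library lay below every control library. The calls of SEMA3F and PLXNB1 held with any 1 library left out, with adjusted p at most 0.0240 and 0.0331, whereas that of SEMA3B was lost without Carbo+COM33 1 (adjusted p = 0.0774), Carbo+COM33 2 (0.0683), control 2 (0.0744) or control 3 (0.0519).

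NTN4 had 744, 751 and 766 CPM in Carbo+COM33 cells, against 985, 937 and 911 CPM in control cells. Every Carbo+COM33 library was lower, by 0.32 ± 0.08 on the log2 scale (SE, adjusted p = 0.0274). Its call was lost in 6 of the 9 fits with 1 library left out: Carbo+COM33 1 (adjusted p = 0.132), Carbo+COM33 2 (0.122), Carbo 2 (0.0530), control 1 (0.0642), control 2 (0.122) and control 3 (0.0771). PLXNB2 had 380, 407 and 425 CPM in Carbo+COM33 cells, against 453, 544 and 531 CPM in control cells. It fell by 0.33 ± 0.09 (SE, log2 scale, adjusted p = 0.0485), without overlap; with DESeq2-style size factors in place of TMM the adjusted p was 0.0519. This call too was lost in 6 of 9 fits: without Carbo+COM33 1 (adjusted p = 0.213), Carbo+COM33 2 (0.155), Carbo 2 (0.0716), Carbo 3 (0.0513), control 2 (0.221) and control 3 (0.158).

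Some genes called against Carbo were not called against control. SEMA3A had 6.48, 7.33 and 7.13 CPM in Carbo+COM33 cells, all below the 9.36, 17.6 and 24.1 CPM of control cells, at a log2 fold change of -1.28 ± 0.44 (SE, adjusted p = 0.0970). PLXNA2 had 14.9, 16.6 and 15.4 CPM in Carbo+COM33 cells, against 14.7, 9.79 and 10.7 CPM in control cells, with control 1 just below the Carbo+COM33 libraries (log2 fold change 0.42, adjusted p = 0.157). ROBO1 had 2.95, 3.07 and 3.95 CPM in Carbo+COM33 cells and 4.02, 5.06 and 5.20 CPM in control cells, nearly touching, with a log2 fold change of -0.52 and an adjusted p of 0.139. SLIT2 had at most 1.91 CPM in Carbo+COM33 cells and 2.43, 3.40 and 3.63 CPM in control cells, and missed the threshold at a log2 fold change of -1.22 ± 0.34 (SE, adjusted p = 0.0515). The other genes among the 10 with the largest differences were EFNB3 (log2 fold change -0.93), SLIT1 (-0.79), SLIT3 (-0.73), ROBO4 (0.71) and UNC5A (1.04), with adjusted p from 0.142 to 0.287. Whether the difference from Carbo and the difference from control differ is the comparison of Carbo with control.

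The guidance genes are rich in G and C, and GC content moved with the comparisons against control. The median GC content of the longest transcript was 59.4% over the 51 genes and 48.3% over all tested genes. Of the 2275 tested genes over 60% GC, 16 were called higher and 181 lower in Carbo+COM33 against control, with a median log2 fold change of -0.21, and the 25 guidance genes among them had a median of -0.31. In Carbo+COM33 against Carbo the same 2275 genes had a median of 0.03, with 56 called in each direction. A second fit carried the replicate number as a block and removed each library's trend on GC content and length. It used only the libraries of the compared groups, with 2 residual degrees of freedom. The numbers of Carbo+COM33 libraries did not pair with those of control or Carbo, so the block rests on a shared number only. In Carbo+COM33 against control this fit called 13 guidance genes, where 10.3% of all genes were called. Of the 13 guidance genes 5 were higher and 8 lower, beside 5.23% and 5.03% of all genes. SEMA3F (log2 fold change -0.84, adjusted p = 0.000152), SEMA3B (-0.96, 0.000439), PLXNB1 (-0.51, 0.00240) and NTN4 (-0.34, 0.0104) were called lower than in control, and PLXNB2 was not (-0.12, 0.40). SEMA3A (-1.36, 0.000403), SLIT2 (-1.27, 0.0260), EFNB1 (-0.41, 0.0130) and SEMA3C (-0.34, 0.0208) were called lower here but not in the first fit. That first fit had neither the block nor the correction. With the block alone SEMA3A (adjusted p = 0.00614) and EFNB1 (0.0138) were called lower, and SLIT2 (0.0531) and SEMA3C (0.287) were not. The receptors UNC5A (1.29, 0.0237), ROBO4 (0.90, 0.0196), PLXNA2 (0.52, 0.0386) and PLXNA1 (0.36, 0.00453) and the ligand NTN1 (0.41, 0.0499) were called higher. In Carbo+COM33 against Carbo the fit with block and correction called 8 guidance genes, 3 higher and 5 lower, beside 3.11% and 3.17% of all genes. SEMA3F, SEMA3B, SEMA3A, PLXNB1 and PLXNA2 were again called, and ROBO1 was not (adjusted p = 0.0521). EFNB1 (0.0138, lower), UNC5A (0.0437, higher) and ROBO3 (0.0454, higher) were called there and not in the first fit.

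The third comparison, Carbo against control, asks what carboplatin alone went with. No guidance gene was called and 0% of all 16450 genes were, the lowest adjusted p being 0.220. Before adjustment 2748 genes lay under 0.05, among them 7 guidance genes, and DESeq2 called 76 genes (0.462%) and no guidance gene. Without Carbo 1, 6.29% of all genes were called, and 5 guidance genes with them: SEMA3C (log2 fold change 0.73, adjusted p = 0.0177) and SEMA3A (1.20, 0.0225) higher in Carbo, and UNC5B (-1.09, 0.0181), ROBO3 (-0.70, 0.0316) and EPHB1 (-1.19, 0.0464) lower. Same-numbered Carbo and control libraries deviated together from their group means in these same counts. The labels do not say what the numbers mark, and on that ground alone the numbers were taken as pairs. The comparison was repeated with the number as a block in the 6 Carbo and control libraries. The paired fit called 15 of the 51 guidance genes, 2 higher and 13 lower, where 22.7% of all genes were called, 11.2% higher and 11.5% lower.

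SEMA3A and SEMA3C were the 2 that rose. SEMA3A had 11, 31.9 and 46.3 CPM in Carbo libraries 1 to 3, against 9.36, 17.6 and 24.1 CPM in control libraries 1 to 3. The Carbo library was higher in each of the 3 pairs although the groups overlapped, and the paired log2 fold change was 0.75 ± 0.11 (SE, adjusted p = 0.000179), against 0.80 ± 0.40 (adjusted p = 0.324) without the pairing. SEMA3C had 199, 358 and 440 CPM in Carbo cells, against 184, 255 and 282 CPM in control cells, again higher in every pair. Its paired log2 fold change was 0.42 ± 0.07 (SE, adjusted p = 0.000406), against 0.46 ± 0.22 (adjusted p = 0.315) without the pairing.

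The 13 that fell in the paired fit came from 6 families. Among the receptors, EPHB1 had 1.35, 1.46 and 1.39 CPM in Carbo cells, against 2.15, 3.53 and 4.11 CPM in control cells, with no overlap and a paired log2 fold change of -1.19 ± 0.28 (SE, adjusted p = 0.00537). UNC5B had 90.2, 43.7 and 28.2 CPM in Carbo cells, against 104, 68.7 and 57.2 CPM in control cells. It was lower in each pair, by 0.59 ± 0.10 on the log2 scale (SE, adjusted p = 0.000617). NRP1 had 380, 316 and 296 CPM in Carbo cells, against 395, 348 and 346 CPM in control cells, at a paired log2 fold change of -0.14 ± 0.05 (SE, adjusted p = 0.0391). The other receptors called lower were ROBO3 (-0.49, adjusted p = 0.00210), PLXNA2 (-0.41, 0.0339), PLXNA3 (-0.28, 0.000991), EPHA10 (-0.28, 0.0246), PLXNB1 (-0.27, 0.00512) and EPHB4 (-0.23, 0.0116). The ligands called lower were the membrane-bound semaphorins SEMA6C (-0.44, 0.00978), SEMA6B (-0.34, 0.00196), SEMA4C (-0.21, 0.0365) and SEMA4B (-0.16, 0.0237). Genes among the 10 with the largest differences but not called in either fit were EFNB3 (log2 fold change -0.93 in the unpaired fit), NTN5 (-0.70), SLIT2 (-0.49) and UNC5A (-0.48).

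The paired falls went with GC content. Over 60% GC, 25 guidance genes had a median paired log2 fold change of -0.23, with 9 called lower and 0 higher, and all 2275 such genes had a median of -0.24, with 816 called lower and 13 higher. After each library's trend on GC content and length was removed, in the same paired fit, those medians were -0.02 and 0.0006. The correction removes such a trend by design, so its loss over all 2275 genes was built in and is not a result. This corrected fit called 8 guidance genes, 5 higher and 3 lower, where 10.3% of all genes were called, 5.26% higher and 5.04% lower. SEMA3A (0.55, adjusted p = 0.00164) and SEMA3C (0.27, 0.00822) were again called higher, and EPHB1 (-1.13, 0.0113), UNC5B (-0.41, 0.00471) and NRP1 (-0.22, 0.00263) again lower. EFNB1 (0.25, 0.0249), EPHA2 (0.18, 0.0172) and PLXNB2 (0.21, 0.00248) were called higher in the corrected fit and not in the uncorrected one. Of the 51 genes 29 were negative after the correction, against 41 before it.

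**Figure D4:**
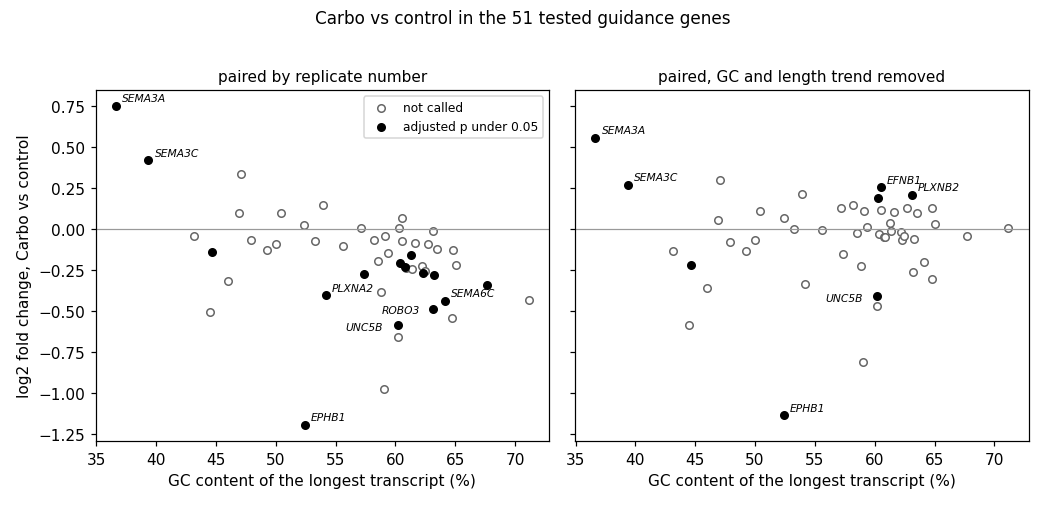
Paired log2 fold changes of Carbo against control for the 51 tested guidance genes, plotted against the GC content of the longest transcript, before (left) and after (right) removal of each library's trend on GC content and length; filled points have an adjusted p under 0.05. The fall with rising GC content on the left is not seen on the right, where the trend over all genes was removed by design. SEMA3A, SEMA3C, EPHB1 and UNC5B keep their direction in both.

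Leaving out the pair of libraries numbered 1, 2 or 3 gave 17, 7 and 10 called guidance genes in the paired fit, when 26.4%, 9.87% and 17.3% of all genes were called. SEMA3A, SEMA3C, UNC5B, EPHB1, ROBO3 and SEMA6B were called in all 3 of these fits. The correction for GC content and length ended the calls of ROBO3 (-0.27, adjusted p = 0.0905) and SEMA6B (-0.04, 0.790). Without pair 1 the calls of EPHA10 (adjusted p = 0.109) and PLXNA2 (0.112) were lost. Without pair 2 those of NRP1 (0.267), EPHA10 (0.0948), EPHB4 (0.119), PLXNA3 (0.0560), PLXNB1 (0.113), SEMA4B (0.360), SEMA4C (0.401) and SEMA6C (0.123) were lost. Without pair 3 those of NRP1 (0.227), EPHB4 (0.0736), PLXNA2 (0.152), SEMA4B (0.0633) and SEMA4C (0.0652) were lost.

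The proteins that work with guidance receptors were read from a list of 93 genes chosen by role: coreceptors, adaptors, GTPase regulators, actin regulators and proteases. The list was drawn up with earlier results of these data known, so its share of calls is not an independent result. Of the 93 genes 84 were tested. In Carbo+COM33 against Carbo 12 were called (14.3%), 7 higher and 5 lower, beside 4.96% of all genes, and the list's median log2 fold change was 0.01. In Carbo+COM33 against control 16 were called (19.0%), 7 higher and 9 lower, beside 6.29% of all genes, with a median of -0.05. In Carbo against control none was called, while the paired fit called 35, 16 higher and 19 lower, beside 22.7% of all genes, and the fit corrected for GC content and length called 14, 6 higher and 8 lower, beside 10.3%.

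Among the genes closest to the receptors, ERBB2, which binds class B plexins and is abundant in SKOV3, had 1485, 1605 and 1800 CPM in Carbo+COM33 cells, against 2239, 2473 and 2532 CPM in Carbo cells. The groups did not overlap, and the log2 fold change was -0.57 ± 0.09 (SE, adjusted p = 0.00508). GRB7, an adaptor that binds ERBB2 and Eph receptors, had 9.13, 8.45 and 9.49 CPM in Carbo+COM33 cells, against 12.8, 19.2 and 22 CPM in Carbo cells (log2 fold change -1.0, adjusted p = 0.0108). FLRT3, a membrane protein that binds UNC5 and ROBO1, had 3.02, 3.28 and 2.56 CPM in Carbo+COM33 cells, against 6.39, 21.5 and 31.0 CPM in Carbo cells. Its Carbo libraries spread as those of SEMA3A did, with Carbo 1 the lowest, and the log2 fold change was -2.73 ± 0.51 (SE, adjusted p = 0.0106). SDCBP, the scaffold syntenin that binds the tails of B ephrins and of syndecans, had 558, 505 and 499 CPM in Carbo+COM33 cells, against 341, 253 and 253 CPM in Carbo cells. It rose by 0.88 ± 0.13 (SE, log2 scale, adjusted p = 0.00334), without overlap.

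The mediators of semaphorin signalling and the actin regulators moved in both directions. CRMP1 and DPYSL2 belong to the collapsin response mediators, which act below SEMA3A on microtubules. CRMP1 had 46.5, 42.4 and 44.0 CPM in Carbo+COM33 cells, against 30.1, 26.5 and 16.6 CPM in Carbo cells (log2 fold change 0.86, adjusted p = 0.0114), and DPYSL2 fell by 0.28 (adjusted p = 0.0425). LIMK1, the kinase that inactivates cofilin (log2 fold change 0.56, adjusted p = 0.0204), and CFL2, a cofilin (0.44, 0.0392), rose. So did RND3 (0.46, 0.0137), ABL2, a kinase that acts on actin (0.35, 0.0289), and the actin-binding ABLIM3 (0.61, 0.00677), while its relative ABLIM1 fell (-0.54, 0.0354).

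Against control, SDCBP (log2 fold change 0.84, adjusted p = 0.00367), CRMP1 (0.73, 0.0240), CFL2 (0.59, 0.0118), ABLIM3 (0.52, 0.0155), RND3 (0.50, 0.0104) and ABL2 (0.50, 0.00595) were higher in Carbo+COM33, as was MET, a receptor kinase that pairs with class B plexins (0.33, 0.0310). FLRT3 (-2.11, 0.0327), GRB7 (-0.82, 0.0265), ERBB2 (-0.52, 0.00807) and DPYSL2 (-0.31, 0.0288) were lower. The others called lower were VASP, which promotes actin filament growth (-0.62, 0.0340), MICALL2, a MICAL-like protein (-0.51, 0.0428), the Rac activator VAV2 (-0.46, 0.0154), ARHGAP39 (-0.37, 0.0483), whose fly counterpart binds Robo, and INPPL1, a phosphatase bound by EPHA2 (-0.36, 0.0425). In the fit with both the replicate block and the correction for GC content and length, MICALL2 (-0.28, 0.132), ARHGAP39 (-0.15, 0.323) and INPPL1 (-0.19, 0.0974) were not called. SDCBP was called in both comparisons with any 1 library left out, and ERBB2 in the comparison with Carbo.

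The calls of the remaining listed genes depended on single libraries. Against Carbo, leaving out Carbo 2 ended 10 of the 12 calls (adjusted p = 0.0524 to 0.194), Carbo+COM33 1 ended 8 (0.0529 to 0.161), Carbo+COM33 2 ended 8 (0.0533 to 0.127), Carbo 3 ended 5 (0.0700 to 0.128), Carbo+COM33 3 ended 4 (0.0547 to 0.0885), control 2 ended 4 (0.0501 to 0.0766), control 3 ended 2 (0.0566 and 0.0669) and control 1 ended 1 (0.0504). Without Carbo 1 the list held 28 calls among the 84 tested genes, when 16.5% of all genes were called. Against control, leaving out control 2 ended 15 of the 16 calls (0.0572 to 0.219), Carbo+COM33 1 ended 14 (0.0610 to 0.216), Carbo+COM33 2 ended 14 (0.0547 to 0.183), control 3 ended 13 (0.0519 to 0.135), Carbo 2 ended 6 (0.0521 to 0.0780), and Carbo 3 (0.0511), Carbo+COM33 3 (0.0642) and control 1 (0.0714) ended 1 each.

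SEMA3F, at chr3:50155045-50189075, and SEMA3B, at chr3:50267558-50277546 (GENCODE 29, GRCh38), are both on the plus strand and 78.5 kb apart, and this stretch was looked at after their values were seen. Within 100 kb of either gene lay 17 other tested genes. Of these 0 were called in Carbo+COM33 against Carbo, where 4.96% of all genes were called, and 17 genes are too few to set 0 apart from that share. Their log2 fold changes ran from -0.84 for ZMYND10 to 0.51 for HYAL1. GNAI2, a G protein subunit whose gene lies between SEMA3F and SEMA3B, had a log2 fold change of 0.06 ± 0.08 (SE, adjusted p = 0.713). RASSF1, a tumour suppressor of the same region, had a value of 0.09 (adjusted p = 0.606). Against control 2 of the 17 were called lower in Carbo+COM33, where 3.09% of all genes were: RBM6 (-0.47, adjusted p = 0.0321) and HYAL2 (-0.46, adjusted p = 0.0368). The antisense genes SEMA3F-AS1 and SEMA3B-AS1 held 80 and 75 counts over all libraries, against 7155 for SEMA3F and 4859 for SEMA3B.

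**Figure D5:**
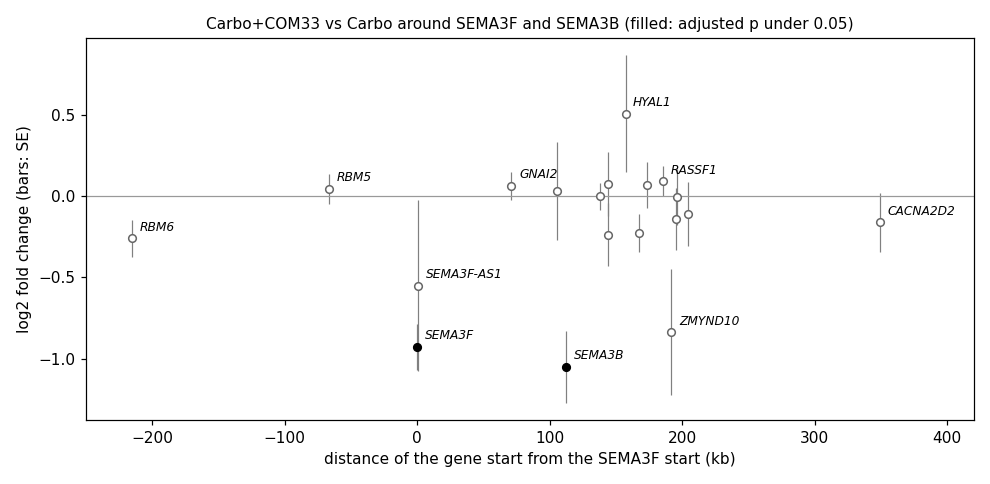
Log2 fold changes with SE bars, Carbo+COM33 against Carbo, of the 19 tested genes around SEMA3F and SEMA3B, by the distance in kb of each gene's start from that of SEMA3F; filled points have an adjusted p under 0.05. SEMA3F and SEMA3B are called at -0.93 and -1.05, and GNAI2 between them lies at 0.06.

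Since these genes are best known from neurons, the neuron markers were read beside them. The 5 markers summed to 62.6 to 71.8 CPM in Carbo+COM33, 31.5 to 38.8 CPM in Carbo and 41.5 to 48.0 CPM in control cells, and MAP2, a microtubule protein, made up most of this. RBFOX3 and ELAVL3, which define neurons, stayed under 1 CPM in every library. MAP2 had 57.4, 66.9 and 67.2 CPM in Carbo+COM33 cells, against 35, 29.8 and 27.7 CPM in Carbo cells and 40.6, 37.0 and 43.1 CPM in control cells, and it rose against Carbo by 1.05 on the log2 scale (adjusted p = 0.000502). Of the 12 epithelial markers 11 were tested, and 2 were called against Carbo, KRT7 and ERBB2, both lower. KRT7 had 116, 153 and 135 CPM in Carbo+COM33 cells, against 207, 368 and 356 CPM in Carbo cells (log2 fold change -1.21, adjusted p = 0.00893). PAX8 lay the other way, with 531, 450 and 476 CPM in Carbo+COM33 cells, against 416, 297 and 281 CPM in Carbo cells, without overlap, and missed the threshold (0.55, adjusted p = 0.0713). The other 8 tested markers, KRT8, KRT18, KRT19 and EPCAM among them, had log2 fold changes from -0.45 to -0.05 and were not called. The part of these changes in the guidance genes was not tested.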

How the data were processed

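The authors deposited whole-number read counts per gene and FPKM values for 9 libraries made from poly-A RNA, per the labels' protocols. The submitters' processing notes name HISAT2, HTSeq 0.11.2, DESeq2 1.26.0 and GRCh38; settings and strand handling are not given in the sources used here. The deposited FPKM values equalled count per gene length and library total within 7.3e-12, so every FPKM carries the error of its count. All 32378 identifiers and names matched GENCODE 29, which gave positions and GC content. Library totals were 13851760 to 15533668 counts, which limits the precision of low counts; errors are SD or SE between libraries.

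Counts were tested with edgeR 4.0.16 in R 4.3.3 (filterByExpr, TMM, quasi-likelihood F test, two-sided, 9 libraries in 3 groups, 6 residual degrees of freedom). P-values were adjusted by Benjamini-Hochberg over the 16450 genes that passed the filter and are called under 0.05. CPM are counts over the TMM-scaled library size. The fits were tested on simulated data in which same-numbered libraries of all 3 groups deviated together and every gene had the same dispersion. No GC or length trend was simulated. The simulation thus did not test the removal of such a trend, or the block where the numbers do not pair. Same-numbered Carbo and control libraries deviated together from their group means over 6607 genes (correlations across genes of 0.824, 0.565 and 0.748), so that comparison was also fitted with the replicate number as a block (2 residual degrees of freedom); the labels do not say what the number marks. The GC and length correction removed a loess trend (span 0.5) of log2 counts per library.

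Members, gene lists and tests were chosen with earlier results of these data known. Named are all called genes, the most abundant gene of each family, the 10 largest differences per comparison, genes called in the paired fit, and partners of called genes. Alternatives were DESeq2-style size factors, no filter, DESeq2 1.42.0, the block with and without GC correction, and leaving out each library; leaving out each pair in the paired fit was added after seeing the data. Promoter sequences are from RefSeq (GRCh38.p14), which held 55 of the 65 genes by symbol. Python 3.11.15 with pandas 2.3.3 and matplotlib 3.10.9 was used.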

Additional observations from a re-analysis of the deposited data

How the results depend on the processing

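In Carbo+COM33 against Carbo, 6 guidance genes were called, and 16 without the low-count filter (5.79% of all genes called), 10 with DESeq2 (7.88%) and 1 to 18 with 1 library left out (0.729% to 16.5% of all genes). Of the 84 tested partner genes 12 were called, and 7 with the replicate block (3.05% of all genes). With 1 library left out 2 to 28 were called (0.729% to 16.5% of all genes). In Carbo against control, 0 guidance genes were called, and 5 without the filter (2.87% of all genes). The replicate block gave 15 (22.7%), and the block with the GC and length correction 8 (10.3%). The block without pair 1, 2 or 3 gave 17, 7 and 10 (26.4%, 9.87% and 17.3%). With 1 library left out 0 to 5 were called, the 5 without Carbo 1 (6.29% of all genes). The partner genes in that comparison gave 0 calls, and 5 without the filter (2.87% of all genes). They gave 35 with the block (22.7%) and 14 with block and correction (10.3%). The block without pair 1, 2 or 3 gave 40, 15 and 27 (26.4%, 9.87% and 17.3%). With 1 library left out there were 0 to 4 (at most 6.29% of all genes). In Carbo+COM33 against control, 5 guidance genes were called, 11 without the filter (5.97% of all genes), 8 with DESeq2 (9.18%), 13 with block and correction (10.3%) and 2 to 9 with 1 library left out, and the 16 partner calls ran from 1 to 24. In those fits 0.693% of all genes (without control 2) to 13.4% (without Carbo+COM33 3) were called. The cause of these moves was not tested. In Carbo against control SEMA4B had a log2 fold change of -0.15, and of 0.0345 with block and correction.

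The replicate numbers of Carbo+COM33 libraries did not pair with those of Carbo (correlations across genes of -0.015, 0.138 and -0.388) or control (0.0851, 0.101 and -0.420), so the libraries share only a number there. With the block 5 and 7 guidance genes and 7 and 14 partner genes were called in those comparisons, beside 3.05% and 6.86% of all genes. Against Carbo, PLXNB1 (adjusted p = 0.0795) and ROBO1 (0.0776) were not called with the block. Among the single genes named, 512 of the alternative values kept direction and side of the threshold, 86 passed it newly, 46 lost it and 1 changed sign. Depth limits the low genes: EFNB3, with 77 counts in all, had an SE of 0.51 in Carbo+COM33 against control, so a log2 difference of that size was not detectable.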
